A study of Mus musculus with 6 samples.

Results

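The genes described here encode the matrix metalloproteinases (MMPs), the ADAMTS proteases and the tissue inhibitors of metalloproteinases (TIMPs), measured in M0505 and STOSE mouse ovarian surface epithelial cells. They were taken from the deposited table by gene symbol alone, as every symbol made of Mmp, Adamts or Timp and a number, and this gave 46 of the 20405 genes of the array, namely 23 MMP genes, 19 ADAMTS genes and 4 TIMP genes. Each gene was read by the probe set that was brightest on average over the 6 arrays. M0505 is a line of FVB/N ovarian surface epithelial cells that was used at early passage (3 arrays), and STOSE is the line that arose from it by spontaneous transformation during long-term culture (3 arrays). Both lines were grown in the same medium, which held fetal calf serum and epidermal growth factor, and neither was given a transgene or a treatment. Each group is therefore 1 cell line, and the p-values measure the spread between samples of that line only. RNA came from whole cultures, so fewer cells expressing a gene and less RNA of it per cell cannot be told apart.

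MMPs are zinc-dependent enzymes that are made with an inhibitory propeptide and cut collagens, gelatin, proteoglycans and many cell surface proteins once this is removed. ADAMTS enzymes are secreted relatives that carry thrombospondin repeats, and they cut proteoglycans such as versican or trim the ends of procollagens. TIMPs bind the active site of these enzymes, and in the ovary these families take part in the breakdown and repair of the ovarian wall at ovulation. The labelled tissue was checked first. *Wt1* and *Upk3b*, 2 markers of the ovarian surface epithelium, had mean log2 values of 11.39 and 12.25 in M0505 cells and of 10.76 and 11.91 in STOSE cells. Of the 10 markers of this epithelium 4 were called lower in STOSE cells (40.0%, against 7.59% of all genes). These were *Gata4* (log2 fold change -1.38) and the keratin genes *Krt7* (-1.03), *Krt8* (-4.55) and *Krt19* (-5.56). At the adjusted p alone 9 of the 10 were lower (24.8% of all genes were). *Lhx9* was dim in both lines, with means of 4.63 and 4.71. Of 6 endothelial markers 0 were called higher (against 4.90% of all genes) and 1, *Kdr*, was called lower (16.7%, against 7.59%). Its mean went from 9.58 in M0505 cells to 4.41 in STOSE cells. Of 6 granulosa markers 0 were called higher and 1, *Inha*, was called lower (16.7%), from a mean of 9.61 to one of 5.68. Over all 28944 probe sets the medians of the arrays lay between 5.64 and 5.68. Over the 1 probe set kept for each gene they lay between 6.46 and 6.49 for M0505 and between 6.25 and 6.29 for STOSE.

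Protease genes moved in both directions. With calls made from 2-fold upwards and an adjusted p below 0.05, 10 of the 46 genes were higher in STOSE cells (21.7%, against 4.90% of all genes) and 5 were lower (10.9%, against 7.59% of all genes). The 10 were *Mmp8*, *Mmp16*, *Adamts1*, *Adamts5*, *Adamts9*, *Mmp13*, *Mmp28*, *Mmp27*, *Mmp3* and *Mmp2*, and the 5 were *Adamts12*, *Mmp11*, *Mmp19*, *Mmp14* and *Adamts16*. *Mmp3* was the 1 called gene with both means under the background level defined below for *Mmp8*. At the adjusted p alone 14 were higher (31.6% of all genes were) and 16 were lower (24.8% of all genes were). The 3 STOSE arrays did not overlap the 3 M0505 arrays in 38 of the 46 genes, which is 82.6%, against 64.6% of all genes. The median log2 fold change was 0.09 over the 46 genes and 0.08 over all genes. Centring each array on its median over the probe sets kept, which differed between the lines, added 0.20 to the log2 fold change of every gene, which changed the counts to 12 higher and 4 lower members and those over all genes from 1000 higher and 1548 lower to 1466 and 1177.

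**Figure D1:**
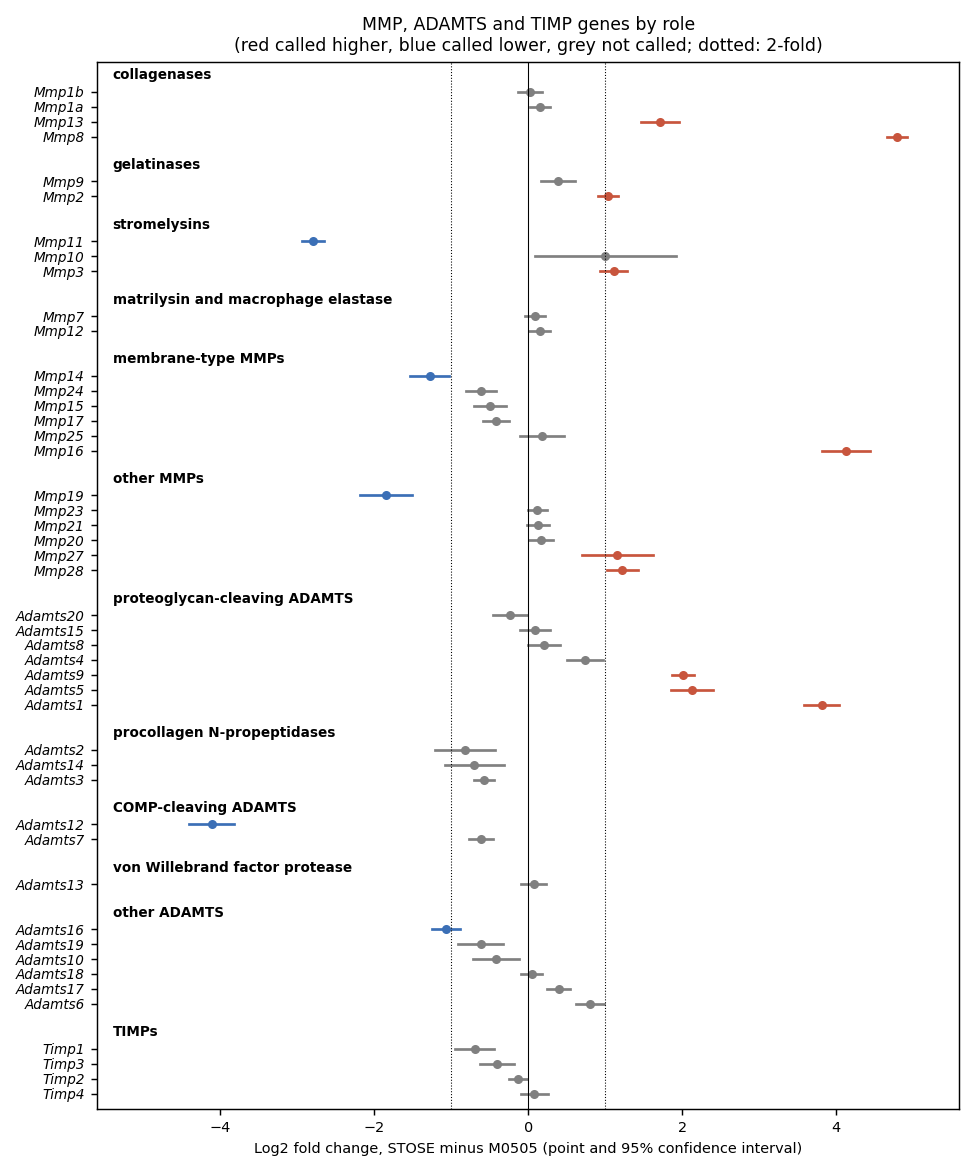
The log2 fold change of each of the 46 genes (STOSE minus M0505, 3 arrays each) is plotted on the horizontal axis with its 95% confidence interval, and the genes are grouped by role. The values run from -4.11 (*Adamts12*) to 4.79 (*Mmp8*), and the TIMP genes lie between -0.70 and 0.08.

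Among the collagenases, which cut fibrillar collagen, *Mmp8* and *Mmp13* rose. *Mmp8*, the neutrophil collagenase, had log2 values of 3.48, 3.54 and 3.44 in M0505 cells and of 8.26, 8.30 and 8.27 in STOSE cells. All 3 M0505 values lay under 4.74, and all 3 STOSE values lay far above it. This was taken as the background level, which 95% of the single array values of the 1134 probe sets for olfactory receptors did not exceed. The measured log2 difference was 4.79 (standard error, SE, 0.06, adjusted p = 1.65e-09). Since its M0505 signal was under the background level, the fold change is given only as a bound, and *Mmp8* was at least 11.6-fold higher in STOSE cells when set against that level. Of 8 leukocyte markers 0 were called higher (against 4.90% of all genes) and 1, *Cd68*, was called lower (12.5%, against 7.59%). *Lyz2* (0.56) and *Cd3e* (0.22) were higher at the adjusted p alone, as were 31.6% of all genes. *Lyz2* had means of 3.62 and 4.18, both under the background level. The mean log2 value of the 8 was 4.79 to 4.81 per array in M0505 cells and 4.56 to 4.60 in STOSE cells, and the neutrophil and myeloid genes *S100a8* and *Itgam* had STOSE means of 4.04 and 4.18, under the background level. *Mmp13* had values of 4.95, 4.85 and 4.75 in M0505 cells and of 6.75, 6.59 and 6.34 in STOSE cells, without overlap, and it rose 3.28-fold (log2 SE of 0.11, adjusted p = 3.03e-06). The interstitial collagenase genes *Mmp1a* and *Mmp1b*, closely related neighbours whose probes may not fully separate them, lay between 2.54 and 2.93 on all arrays, under the background level.

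Of the gelatinases, which cut denatured collagen and basement membrane, *Mmp2* rose and *Mmp9* did not pass the fold threshold. *Mmp2* had log2 values of 6.56, 6.63 and 6.55 in M0505 cells and of 7.57, 7.64 and 7.62 in STOSE cells. These did not overlap, and the 2.04-fold rise (log2 SE of 0.06, adjusted p = 1.51e-06) lay just above the threshold. *Mmp9* was higher by 0.39 on the log2 scale (SE of 0.10, adjusted p = 0.00839), with means of 4.50 and 4.89 close to the background level.

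The stromelysins MMP3 and MMP10 have broad matrix substrates, and the stromelysin genes moved in both directions. *Mmp11* (stromelysin 3, which a furin-type protease activates inside the cell) fell, from values of 9.69, 9.57 and 9.53 in M0505 cells to 6.83, 6.80 and 6.78 in STOSE cells. This was 6.93-fold lower (log2 difference -2.79 with an SE of 0.06, adjusted p = 1.23e-08), and no other MMP gene fell as far. *Mmp3* (stromelysin 1) had values of 3.60, 3.49 and 3.71 in M0505 cells and of 4.79, 4.72 and 4.62 in STOSE cells. It passed the test (log2 difference 1.11 with an SE of 0.08, adjusted p = 5.31e-06), but all 3 M0505 arrays and 2 of the 3 STOSE arrays lay under the background level, so no fold change is given. *Mmp10* (stromelysin 2) had values of 5.20, 5.08 and 4.88 in M0505 cells and of 7.16, 5.53 and 5.48 in STOSE cells. STOSE replicate 1 stood apart from the other STOSE arrays, and the difference of 1.00 (SE of 0.40) did not pass the test (adjusted p = 0.0604). Without that array it was 0.45 (adjusted p = 0.0058), under 2-fold. *Mmp10* passed the threshold without STOSE replicate 2 (1.27) or 3 (1.29), with the replicate number as a block (1.00) and with each array centred (1.20).

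The membrane-type MMPs are held at the cell surface. *Mmp16* (MT3-MMP) rose from log2 values of 4.32, 4.28 and 3.78 in M0505 cells, all under the background level, to 8.34, 8.26 and 8.18 in STOSE cells. The measured log2 difference was 4.13 (SE of 0.14, adjusted p = 9.86e-08), and set against the background level *Mmp16* was at least 11.4-fold higher. *Mmp14* (MT1-MMP, which activates the proform of MMP2 with TIMP2 as its docking partner) moved the other way, from 9.71, 10.17 and 10.01 to 8.66, 8.67 and 8.71. The lines did not overlap, and it was 2.43-fold lower (log2 SE of 0.11, adjusted p = 1.81e-05). *Mmp24*, *Mmp15* and *Mmp17* were lower at the adjusted p alone, with log2 differences of -0.62, -0.50 and -0.42, and *Mmp25* stayed under the background level in both lines.

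**Figure D2:**
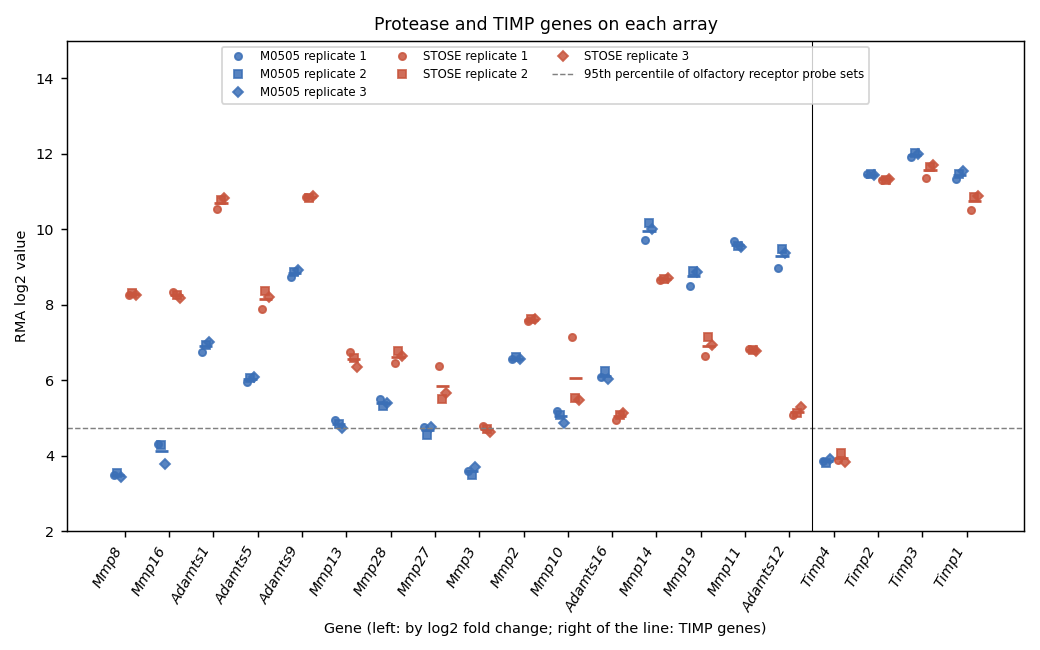
RMA log2 values of the 15 called genes, *Mmp10* and the 4 TIMP genes are plotted for each of the 6 arrays, with blue points for M0505, red points for STOSE, a bar for each mean and a dashed line at the background level of 4.74. The lines do not overlap for any of the 15 called genes, which were called from these same arrays, nor for 64.6% of all genes. STOSE replicate 1 lies above the other STOSE arrays for *Mmp10* (7.16) and *Mmp27* (6.37).

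Of the other MMP genes, *Mmp28* (epilysin) rose from log2 values of 5.50, 5.33 and 5.40 to 6.47, 6.77 and 6.65, a 2.33-fold rise (adjusted p = 6.77e-06). *Mmp19* fell from 8.50, 8.91 and 8.87 to 6.65, 7.15 and 6.92, which was 3.61-fold lower (adjusted p = 1.15e-05). Neither gene overlapped between the lines. *Mmp27* had values of 4.77, 4.56 and 4.75 in M0505 cells and of 6.37, 5.51 and 5.66 in STOSE cells, a 2.23-fold rise (log2 SE of 0.20, adjusted p = 0.00127). The M0505 mean of 4.69 lay just under the background level. Its rise was larger on STOSE replicate 1, and without that array the log2 fold change was 0.89 (adjusted p = 9.45e-05), under 2-fold. *Mmp7* (matrilysin), *Mmp12* (macrophage elastase), *Mmp20* (enamelysin), *Mmp21* and *Mmp23* were not called, with log2 fold changes from 0.09 to 0.16, and *Mmp7*, *Mmp12*, *Mmp20* and *Mmp21* had both means under the background level.

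Among the protein-coding genes on the array, ordered by the RefSeq annotation of GRCm38.p6, 10 of the 23 MMP genes lie side by side on chromosome 9. Of these 10, 4 were higher (*Mmp13*, *Mmp3*, *Mmp8* and *Mmp27*) and 0 were lower, against 4.90% and 7.59% of all genes. Their median log2 fold change was 0.58, and 6 had both means under the background level, among them the called *Mmp3*. Without STOSE replicate 1 the median was 0.33 and 3 were higher, *Mmp27* being the call lost. Of the 13 MMP genes elsewhere 3 were higher and 3 were lower, with a median of 0.12. The fold changes were not even along the row. *Mmp8* and *Mmp27* are next to each other, with log2 fold changes of 4.79 and 1.15, while *Mmp20*, the gene after *Mmp27*, was at 0.16, and *Mmp1a*, between *Mmp3* and *Mmp10*, was at 0.15. The 5 genes on either side, which were looked at after these values were known, lay between -0.65 (*Birc2*) and 1.13 (*9230110C19Rik*, the 1 of the 10 that was called), and the 2 nearest were *Dcun1d5* at 0.76 and *Tmem123* at 0.28. The 1108 other genes of chromosome 9 had a median of 0.05. By the karyotypes of the paper both lines are aneuploid, M0505 near-diploid or near-tetraploid and STOSE mostly near-triploid. The part of copy number in the changes of any member was not tested.

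**Figure D3:**
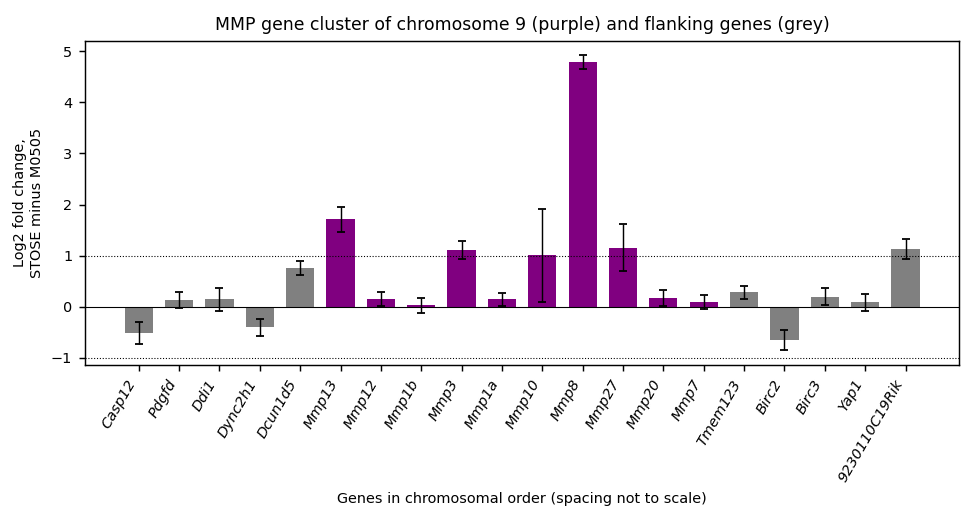
The bars give the log2 fold change (STOSE minus M0505, with 95% confidence intervals) of the 10 clustered MMP genes in purple and of 5 flanking genes on each side in grey, in chromosomal order. *Mmp8* reaches 4.79, *Mmp13*, *Mmp3* and *Mmp27* lie between 1.11 and 1.71, and the interval of *Mmp10* is wide.

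Upstream sequence of the cluster is shown because its genes share motifs that the choice of genes did not use. RefSeq promoter windows of GRCm38.p6 (250 bases before to 50 after each annotated start) were matched by symbol for 32 of the 46 genes. The 14 not matched were *Mmp2*, *Mmp9*, *Mmp16*, *Mmp17*, *Mmp19*, *Adamts4*, *Adamts5*, *Adamts6*, *Adamts7*, *Adamts8*, *Adamts10*, *Adamts15*, *Adamts16* and *Adamts19*. The AP-1 motif TGAGTCA and the TATA motif TATAAA, which do not overlap each other, were searched on both strands. TGAGTCA was found in 5.20% of all 32851 windows, in 0 of the 23 windows of members elsewhere and in 7 of the 12 windows of the cluster. TATAAA was found in 13.6% of all windows, in 2 of the 23 and in 9 of the 12. In the cluster, the motif TGAGTCA was found both for called and for uncalled genes, and whether it goes with the calls was not tested. It was found for *Mmp13* and *Mmp3*, 2 of the 4 genes that rose, and for *Mmp1a*, *Mmp1b*, *Mmp7*, *Mmp10* and *Mmp12*, 5 of the 6 that were not called. Of these uncalled genes all but *Mmp10* had both means under the background level. The *Mmp8* and *Mmp27* windows held none. Clustered genes share ancestry, so their windows are not independent, and a match is a description of these letters only. The 120 bases before the start follow, 5′ to 3′, for the 4 genes that rose, for *Mmp10* and for the uncalled *Mmp1a*, with motif letters in capitals. In *Mmp13* TGAGTCA reads as its reverse complement TGACTCA, 35 bases before the start. In *Mmp3*, *Mmp10* and *Mmp1a* it begins 46, 63 and 73 bases before. The capitals that end the *Mmp8* line belong to TTTATA, the reverse complement of TATAAA, which runs across the start.
*Mmp13*, chr9:7272394-7272513, plus strand: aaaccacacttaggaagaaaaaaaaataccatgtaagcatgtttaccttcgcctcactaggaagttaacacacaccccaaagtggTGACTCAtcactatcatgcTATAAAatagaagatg
*Mmp3*, chr9:7445702-7445821, plus strand: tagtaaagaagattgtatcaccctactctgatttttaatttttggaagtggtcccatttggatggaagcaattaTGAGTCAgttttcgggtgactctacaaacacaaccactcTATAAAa
*Mmp8*, chr9:7558309-7558428, plus strand: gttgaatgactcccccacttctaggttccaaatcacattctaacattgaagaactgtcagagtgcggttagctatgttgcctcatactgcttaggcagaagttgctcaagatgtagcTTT
*Mmp27*, chr9:7571276-7571395, plus strand: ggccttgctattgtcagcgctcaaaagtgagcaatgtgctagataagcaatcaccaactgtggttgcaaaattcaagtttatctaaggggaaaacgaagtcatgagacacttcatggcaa
*Mmp10*, chr9:7502222-7502341, plus strand: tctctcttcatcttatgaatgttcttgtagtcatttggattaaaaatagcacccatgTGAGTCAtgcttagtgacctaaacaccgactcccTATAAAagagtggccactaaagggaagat
*Mmp1a*, chr9:7464021-7464140, plus strand: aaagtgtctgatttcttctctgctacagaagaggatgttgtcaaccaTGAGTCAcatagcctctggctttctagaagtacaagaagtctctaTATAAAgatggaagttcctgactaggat

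Of the 7 ADAMTS genes whose products cleave proteoglycans such as aggrecan and versican, 3 rose (42.9%, against 4.90% of all genes) and 0 fell. *Adamts1*, which the ovary needs for normal ovulation, had log2 values of 6.76, 6.94 and 7.00 in M0505 cells and of 10.53, 10.78 and 10.82 in STOSE cells. It rose 14.0-fold (log2 difference 3.81 with an SE of 0.10, adjusted p = 2.29e-08). *Adamts5*, a major aggrecanase, rose from 5.94, 6.07 and 6.08 to 7.89, 8.38 and 8.21, which was 4.37-fold (adjusted p = 1.48e-06). *Adamts9* rose from 8.74, 8.88 and 8.91 to 10.86, 10.83 and 10.88, which was 4.02-fold (adjusted p = 8.08e-08). None of the 3 overlapped between the lines, and 4 of the 7 (57.1%) did not, against 64.6% of all genes. *Adamts4* was higher by 0.73 on the log2 scale (adjusted p = 3.53e-04), under 2-fold, and *Adamts8*, *Adamts15* and *Adamts20* did not pass the adjusted p (0.21, 0.09 and -0.24). *Adamts1* and *Adamts5* are neighbours on chromosome 16 among the protein-coding genes on the array. The genes next to the pair, *Cyyr1* and *N6amt1*, were at -0.01 and -0.75, and the 597 other genes of that chromosome had a median of -0.01.

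The 3 procollagen N-propeptidase genes, whose enzymes remove the amino-terminal propeptide of fibrillar procollagens, were all lower at the adjusted p and all under 2-fold. *Adamts2* differed by -0.82 on the log2 scale (adjusted p = 0.00345), *Adamts14* by -0.70 (adjusted p = 0.00687) and *Adamts3* by -0.58 (adjusted p = 4.57e-05). None of these overlapped between the lines, which also held for 64.6% of all genes. Of the 2 genes whose products cut cartilage oligomeric matrix protein, *Adamts12* fell from 8.98, 9.49 and 9.38 in M0505 cells to 5.09, 5.14 and 5.29 in STOSE cells. This was 17.3-fold lower (log2 difference -4.11 with an SE of 0.13, adjusted p = 6.65e-08), the largest fall of the 46 genes, at rank 84 of the 1548 genes that fell. *Adamts7*, the other of the pair, differed by -0.61 on the log2 scale (adjusted p = 7.23e-05), under 2-fold. *Adamts16* fell from 6.09, 6.25 and 6.03 to 4.95, 5.09 and 5.13, which was 2.09-fold lower (adjusted p = 8.06e-06). With each array centred on its median it was at -0.86, under 2-fold.

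The remaining ADAMTS genes were not called. *Adamts6* was higher by 0.80 on the log2 scale (SE of 0.08), from a mean of 3.71 to one of 4.51, both under the background level, and with each array centred on its median it was at 1.00 and passed the threshold. *Adamts17* was higher by 0.39, and *Adamts10* and *Adamts19* differed by -0.42 and -0.62, all at the adjusted p alone. *Adamts13*, whose product cleaves von Willebrand factor, and *Adamts18* did not pass the test, at 0.07 and 0.04.

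None of the 4 inhibitor genes was called. *Timp1*, on the X chromosome, had log2 values of 11.34, 11.46 and 11.55 in M0505 cells and of 10.50, 10.86 and 10.90 in STOSE cells. The lines did not overlap, and the difference was -0.70 (95% confidence interval -0.95 to -0.44, adjusted p = 8.11e-04). *Timp3*, whose product binds to the matrix and also inhibits ADAMTS enzymes, had values of 11.92, 12.03 and 12.00 against 11.36, 11.65 and 11.71, a difference of -0.41 (interval -0.63 to -0.19, adjusted p = 0.00625). *Timp2* did not pass the adjusted p, at 11.46, 11.46 and 11.44 against 11.32, 11.32 and 11.33. Its difference was -0.13 (interval -0.25 to -0.01, adjusted p = 0.0623), and it turned to 0.07 with each array centred on its median. *Timp4* lay between 3.80 and 4.07 on all arrays, under the background level.

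Of 41 further genes of the pathway on the array, 3 were higher (7.32%, against 4.90% of all genes) and 7 were lower (17.1%, against 7.59%), with a median log2 fold change of -0.02. *Reck*, a membrane-anchored inhibitor of MMPs, fell by 1.39 on the log2 scale (SE of 0.11, adjusted p = 1.44e-05) and was the 1 gene called among 12 ADAMTS-like proteins, other inhibitors and uptake receptors. Of 8 membrane-bound ADAM proteases, relatives that shed cell surface proteins, *Adam15* was higher (1.20), and *Adam33* (-2.78), *Adam19* (-1.26) and *Adam12* (-1.01) were lower. Averaging the probe sets of *Adam15* gave 0.82, under 2-fold. *Adam12* lost its call with each array centred (-0.81) and when M0505 replicate 1 (-0.84) or STOSE replicate 2 (-0.93) was left out. Among 8 activators and inducers, *Plau*, which encodes urokinase, fell to a mean of 4.33, under the background level (at least 3.50-fold lower when set against it), and *Cd44*, a docking receptor for MMP9, rose by 1.32, while *Furin*, which removes the propeptide of membrane-type MMPs, was at -0.93 (adjusted p = 1.44e-05), under 2-fold. Among 13 astacin proteases and matrix substrates, *Vcan*, the versican gene, fell from a mean of 8.28 to one of 4.58, under the background level. Its measured log2 difference was -3.71 (SE of 0.07, adjusted p = 5.20e-09), and set against that level it was at least 11.7-fold lower. *Eln*, the elastin gene, fell by 4.53, and *Pcolce2*, an enhancer of procollagen C-proteinase, rose by 3.98. *Bmp1*, the C-proteinase itself, was at -0.92 (adjusted p = 4.29e-06), under 2-fold. Of 6 stromal markers 2 were called higher in STOSE cells (33.3%, against 4.90% of all genes), *Acta2* by 2.33 and *Thy1* by 1.49. *Pdgfra* was higher by 0.84, under 2-fold, and *Col3a1* did not pass the test, at -0.10. *Lum* and *Pdgfrb* had both means under the background level. The mean of these 6 markers was 6.80 to 6.89 per array in M0505 cells and 7.67 to 7.70 in STOSE cells. Their part in the changes of the proteases was not tested.

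Of the 46 genes, 5 had several probe sets. All 6 probe sets of *Adamts9* were higher, with log2 fold changes from 2.01 to 2.55, and each was past the threshold when every probe set was tested on its own. All 16 probe sets of *Adamts3* were lower, from -0.99 to -0.32, and none was past 2-fold. The 2 probe sets of *Mmp24* were at -0.62 and -1.04, and the second, with the lower mean, was past the threshold. *Adamts8* (2 probe sets) and *Adamts17* (5) had log2 fold changes of 0.13 to 0.39 on all of them and no call.

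**Figure D4:**
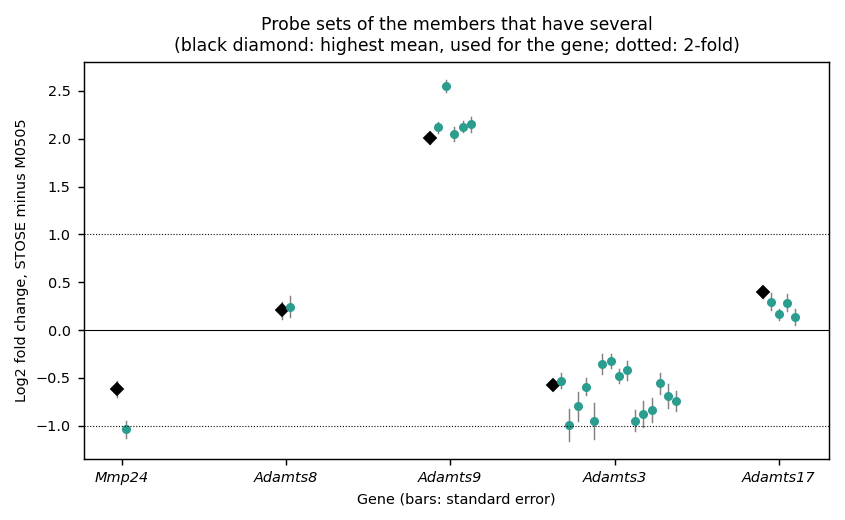
The log2 fold change (STOSE minus M0505) of each probe set is plotted for the 5 genes with more than 1, with bars for the standard error and a black diamond for the probe set that stands for the gene. All probe sets of a gene lie on the same side of 0, those of *Adamts9* between 2.01 and 2.55 and those of *Adamts3* between -0.99 and -0.32.

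Within a line the genes were close on most arrays. The median SD over the 46 genes was 0.09 in M0505 cells and 0.09 in STOSE cells, against 0.08 and 0.08 over all genes. The values of 6 genes spread over more than 0.5 log2 units in a line. In M0505 cells these were *Adamts14* (0.71), *Mmp16* (0.54) and *Adamts12* (0.51), and in STOSE cells *Mmp10* (1.68), *Mmp27* (0.86) and *Adamts2* (0.60).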

How the data were processed

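RNA of 3 M0505 and 3 STOSE samples was hybridized by the authors to Mouse Gene 1.0 ST microarrays (Affymetrix). Per the labels, Affymetrix Expression Console and RMA were used, and the deposited values are RMA log2 values, 1 column per array. Background correction, quantile normalization and probe set summary were done by the authors. The software version, annotation release and genome build are not given in the sources used here. The means and fold changes of the authors in the same table were not used. All 6 value columns were matched to samples by name, and 0 were left over. Of 28944 probe sets 23530 had a symbol, for 20405 genes (1613 with several probe sets, of which the highest mean was kept). No gene was left out for a low value. Lines were compared with lmFit and eBayes of limma 3.58.1 (R 4.3.3), with no covariate and Benjamini-Hochberg adjustment over 20405 genes, and called at an adjusted p under 0.05 and at least 2-fold. On simulated data for this comparison, 197 of 200 genes changed by 2 log2 units among 20405 were recovered, with 0 false calls. The noise was drawn independently for each array and the change was well past the threshold. This result therefore does not cover genes near 2-fold. Groups of 3 cannot give an exact two-sided permutation p below 0.1. The number of arrays limits the precision.

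All genes matching the symbols were accounted for, called ones with the value of every array, and list genes where called or near the threshold. The gene set, the lists and the background measure were chosen with earlier results of these data known. List symbols not on the array were looked up by RefSeq synonyms. Protein motifs were planned and not analysed here. The alternatives were a further quantile normalization, centring, a filter on dim genes, the mean of probe sets, other tests and thresholds, the replicate block, each array left out and, added after seeing the data, every probe set on its own, folds against the background level where all arrays of a line lay under it, and the chromosome 9 cluster without STOSE replicate 1.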

Additional observations from a re-analysis of the deposited data

How the results depend on the processing

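Of the 15 called genes, 9 kept their call under all settings other than the 4-fold threshold, and none changed sign. The further quantile normalization, the mean of probe sets, limma with an intensity trend and the methods' t-test (adjusted or not) each kept all 15. The treat test, which asks for more than 2-fold with confidence, kept 9, at 6 members higher and 3 lower, with 4 pathway genes lower and 2.47% and 4.87% of all genes higher and lower. The 6 it lost were *Mmp2*, *Mmp3*, *Mmp14*, *Mmp27*, *Mmp28* and *Adamts16*. At the adjusted p alone 16 members were lower, 9 and 19 pathway genes were higher and lower, and 31.6% and 24.8% of all genes. At 4-fold the counts were 5 and 2 members, 1 and 4 pathway genes, and 0.912% and 2.49% of all genes. Centring lost *Adamts16* and gained *Mmp10* and *Adamts6*, and the filter on the dimmest 25% of genes removed *Mmp3* before testing. The median log2 fold change of the members was 0.0039 after the further quantile normalization, 0.29 after centring and 0.0442 with the dimmest genes left out, by construction of the last over fewer genes, and the cause of the first was not tested. With each array left out in turn, 9 to 11 members were higher and 5 lower, 3 pathway genes were higher and 6 to 8 lower, 4.68% to 5.22% and 7.39% to 7.80% of all genes were higher and lower, and the median was 0.09 to 0.10. The replicate block gave 11 and 5 members, the addition being *Mmp10*, and 4.91% and 7.59% of all genes. The correlations of deviations between same-numbered arrays were 0.26, 0.04 and 0.25. The numbers were not taken as a pairing because the second was near 0, although 5 of 6 arrays correlated best with their own number, which is a hint of one. Of the 31 uncalled genes, 6 changed sign under some setting.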
